A study of Mus musculus with 2 samples.

Results

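The genes described here encode the enzymes and carriers of central carbon metabolism. They cover glycolysis, lactate and sugar transport, the pentose phosphate pathway, pyruvate dehydrogenase and the tricarboxylic acid (TCA) cycle, and serine synthesis with the folate cycle. They were chosen by gene symbol, and all 42 were found among the 24411 gene rows of both libraries. The tissue was embryonic mouse brain, from which the areas were cut by laser capture microdissection of stained sections before bulk RNA-seq. At embryonic day 16.5, 1 library was made from the subventricular zone (SVZ), which holds dividing neural progenitors, and 1 from the cortex, where newborn neurons settle. The labels name no strain, genotype or treatment for either library, and the number of embryos behind each is not given in the sources used here. In the study these libraries were a benchmark for a light-directed barcoding method in the same areas, which was not analysed here.

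Glycolysis breaks glucose down to pyruvate, which is either turned into lactate or passed by pyruvate dehydrogenase into the TCA cycle in the mitochondria. Branches leave glycolysis on the way: the pentose phosphate pathway makes ribose for nucleotides and reducing power, and the serine pathway draws on 3-phosphoglycerate. Serine feeds the folate cycle, which supplies carbon for thymidine and purine synthesis and is known for its use by dividing cells. Several steps are served by alternative enzymes from separate genes, called isozymes here, and neural progenitors, neurons and astrocytes are known to use different ones.

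Gene-assigned reads numbered 51435667 in the SVZ and 22050693 in the cortex, and a single read came to 0.0194 CPM (reads scaled to a library total of 1000000) in the SVZ and 0.0453 CPM in the cortex. Ratios are given as the log2 of SVZ CPM over cortex CPM, positive where the SVZ was higher. With 1 library in each area no test between areas was possible, and each 95% interval covers counting error only. In 9027 genes averaging 10 CPM or more in these libraries the median log2 ratio was 0.10, and the interval left out 0 in 89.3% of them, so that intervals of this kind were narrow next to the differences between the libraries. Differences in the share of cells of a type and in RNA per cell cannot be told apart in such bulk samples.

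The area labels were checked with known markers. *Pax6*, a transcription factor of cortical progenitors, stood at 179.7 CPM in the SVZ and 0.680 CPM in the cortex. *Sox2*, of neural stem cells, was at 57.5 CPM in the SVZ and 4.31 CPM in the cortex. *Eomes*, of intermediate progenitors, was at 227 CPM in the SVZ and 0.0907 CPM in the cortex, and the division marker *Mki67* was at 269.6 CPM in the SVZ and 5.62 CPM in the cortex. The neuronal genes went the other way, *Tbr1* with 47.3 CPM in the SVZ and 219 CPM in the cortex, and *Map2* with 335 CPM in the SVZ and 832 CPM in the cortex. All 11 apical progenitor, 7 intermediate progenitor and 13 proliferation markers were higher in the SVZ, with summed levels of 7101 against 174 CPM, 1114 against 54.4 CPM and 2695 against 144 CPM. All 14 neuronal markers were higher in the cortex, with summed levels of 3407 CPM in the SVZ and 12287 CPM in the cortex, and *Nefl* was at 0 in the SVZ. All 10 microglial markers were higher in the SVZ, with summed levels of 79.0 and 9.39 CPM and *Trem2* at 0 in the cortex. The choroid plexus list summed to 249 CPM in the SVZ and 2.09 CPM in the cortex, with *Folr1*, *Clic6* and *Otx2* at 0 there. *Ttr* alone gave 240 CPM of the SVZ sum of this list. The astrocyte and oligodendrocyte list summed to 68.5 and 11.5 CPM, with *Gfap*, *Aqp4* and *Aldh1l1* at 0 in the cortex. *Aldh1l1* alone gave 52.8 CPM of that SVZ sum, and the oligodendrocyte genes *Olig1* (1.81 and 3.13 CPM) and *Sox10* (0.447 and 0.952 CPM) were higher in the cortex. Blood vessel markers, 7 of 10 higher in the SVZ, summed to 158 and 119.6 CPM, meningeal markers to 4.59 and 9.39 CPM and erythroid markers to 22.9 and 11.9 CPM, with the adult globins at 0 in both. These marker levels stand beside every ratio given here, and their part in the metabolic results was not tested.

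Across the 42 genes, *Aldoc* was farthest apart on the SVZ side, followed by the 3 serine synthesis genes *Phgdh*, *Psat1* and *Psph*. On the cortex side *Pfkp*, *Eno2*, *Slc2a3* and *Hk1* were farthest apart. Within 2-fold lay 11 of 12 pyruvate dehydrogenase and TCA genes and 4 of 4 pentose phosphate genes, beside 72.8% of all genes averaging 10 CPM or more. Of the 40 genes averaging 10 CPM or more, 9 were at least 2-fold higher in the SVZ (*Hk2*, *Aldoc*, *Ldhb*, *Pdk2*, *Phgdh*, *Psat1*, *Psph*, *Shmt1* and *Mthfd2*) and 3 in the cortex (*Hk1*, *Pfkp* and *Slc2a3*). Over all 9027 genes 14.9% were at least 2-fold higher in the SVZ and 12.3% in the cortex. At 4-fold the counts were 5 genes in the SVZ, against 6.75% of all genes, and 1 in the cortex, against 4.7%. The median log2 ratio of the 42 genes was 0.34, and 27 intervals lay wholly above 0, 12 wholly below, while 3 (*Eno1*, *Tkt* and *Fh1*) held 0. Intervals left out 0 in 89.3% of all genes averaging 10 CPM or more. *Eno1* and *Eno2* were the genes below the 10 CPM minimum and had no part in the 2-fold counts.

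**Figure D1:**
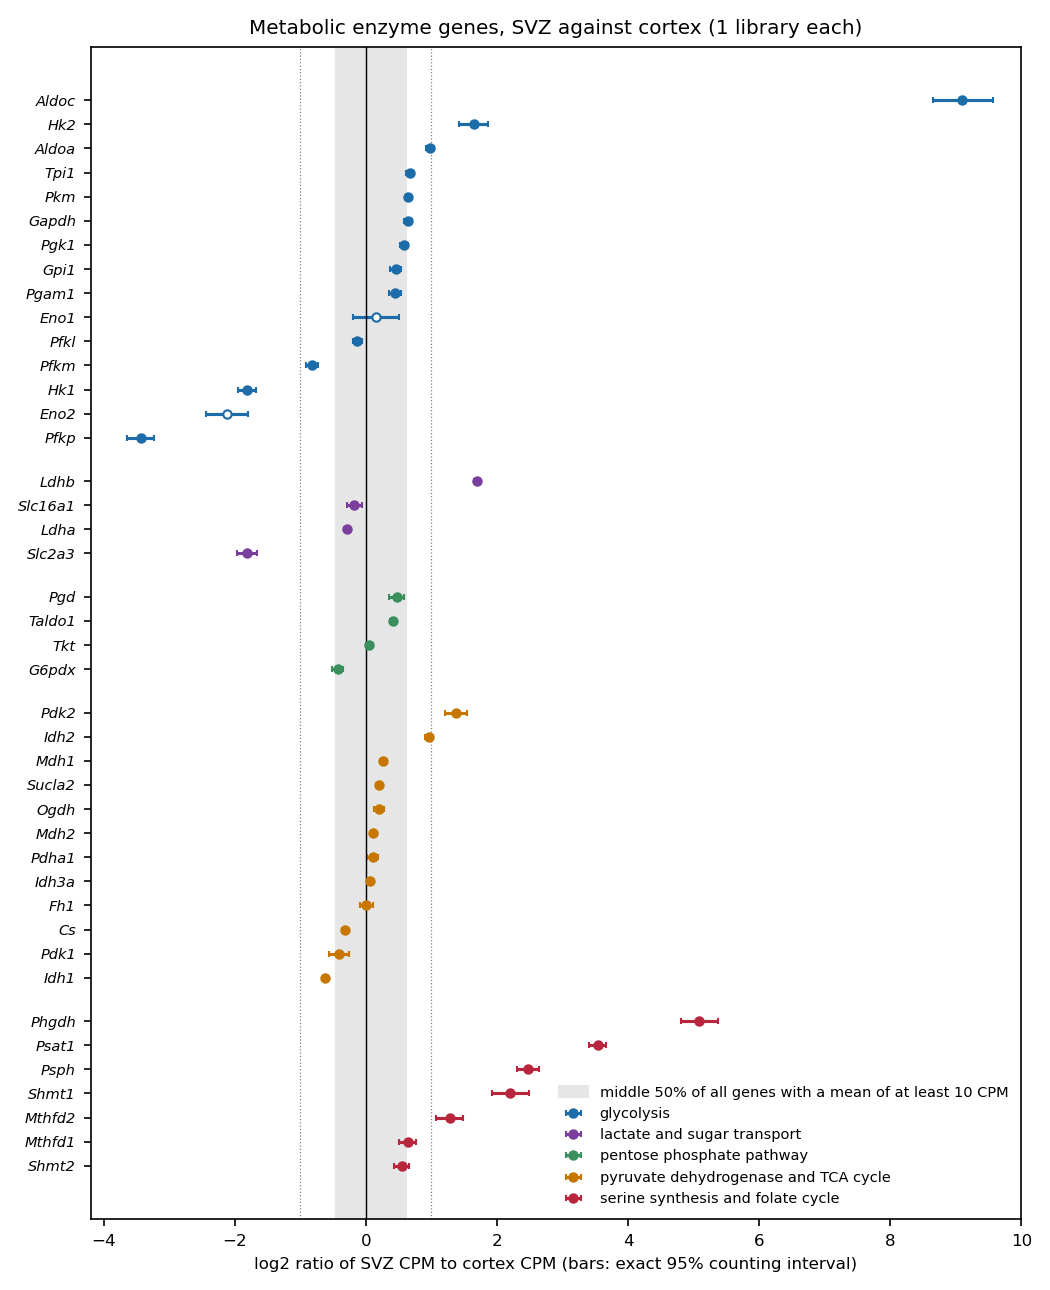
Log2 ratio of SVZ to cortex CPM for the 42 genes by group, with exact 95% counting intervals. Open points lie below a mean of 10 CPM, the dotted lines mark 2-fold, and the grey band runs from -0.46 to 0.61, the middle of all genes averaging 10 CPM or more. *Aldoc* lies farthest to the right at 9.09 and *Pfkp* farthest to the left at -3.43.

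The groups differed more than the whole. Median log2 ratios were 2.20 in 7 serine and folate genes, 0.45 in 15 glycolytic genes, 0.23 in 4 pentose phosphate genes, 0.11 in 12 pyruvate dehydrogenase and TCA genes and -0.23 in 4 lactate and sugar transport genes. Summed over the group, the serine and folate genes took 657 CPM in the SVZ and 126 CPM in the cortex. The TCA group took 3388 and 3457 CPM, a log2 ratio of -0.03, and its median turned to -0.018 when ratios were centred on length and GC content. Of its sums the cytosolic enzyme gene *Idh1* held 684 CPM in the SVZ and 1049 CPM in the cortex. By CPM 9 of the 12 genes were higher in the SVZ, 8 of them with intervals wholly above 0. Among these, the directions of *Idh3a*, *Pdha1*, *Mdh1* and *Mdh2* were not kept under every scaling or length and GC correction. Glycolytic genes summed to 3201 CPM in the SVZ against 1568 CPM in the cortex, but *Aldoc* alone held 1013 CPM of the SVZ sum. Without it the glycolytic sums were 2188 and 1567 CPM, and the log2 ratio of the sums fell from 1.03 to 0.48. In lactate and sugar transport the median and the sum had opposite signs (-0.23 and 0.93), because *Ldhb* carried most of the SVZ sum while the other 3 genes were higher in the cortex.

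DNA before the start is shown for some of these genes, to set the letters of known regulatory motifs beside the ratios. RefSeq promoter windows on GRCm38.p6, 250 bases before to 50 after each start, held entries for 40 of the 42 genes, in 61 windows; *Slc2a3* and *Idh3a* had none. The letters ACGTG, the core of the hypoxia response element bound by hypoxia-inducible factor (HIF), were searched on both strands. They overlap CACGTG, the E-box bound by Myc and its relatives, which always holds them. ACGTG stood in windows of 17 of the 40 genes (42.5%), against 21.8% of 27025 genes in the table, and CACGTG in 5 genes (12.5%), against 8.09%. TGATGNAA, a site of the stress factor Atf4, was in none of the 40, against 4.51% of all genes. A match is a description of the letters and not a bound site, and a missing match says nothing of the factor. The windows of several genes overlap each other, so windows are not independent.

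ACGTG stood before a start in 12 genes, whose log2 ratios ran from -0.82 for *Pfkm* to 2.47 for *Psph*. The stretches that follow come from 7 of them, picked as examples after their values were seen, with *Pfkm*, *Pkm*, *Ogdh*, *Mdh1* and *Psph* left out. They run 5′ to 3′ on the gene's strand, with ACGTG or its reverse complement in capitals. They lie at chr6:82774658-82774698 (minus strand) for *Hk2*, chr7:126799358-126799398 (minus) for *Aldoa*, chrX:106186932-106186972 (plus) for *Pgk1*, chr19:41911739-41911779 (plus) for *Pgam1*, chr7:46845641-46845681 (plus) for *Ldha*, chr3:104638446-104638486 (plus) for *Slc16a1* and chr11:95041475-95041515 (minus) for *Pdk2*. They are set side by side because the genes shown hold the same letters while their log2 ratios ran from -0.29 for *Ldha* and -0.17 for *Slc16a1* to 1.64 for *Hk2*.
Hk2: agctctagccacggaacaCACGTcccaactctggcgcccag
Aldoa: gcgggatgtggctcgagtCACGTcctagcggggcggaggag
Pgk1: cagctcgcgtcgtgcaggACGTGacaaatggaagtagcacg
Pgam1: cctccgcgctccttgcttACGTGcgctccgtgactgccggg
Ldha: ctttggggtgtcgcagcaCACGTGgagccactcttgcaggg
Slc16a1: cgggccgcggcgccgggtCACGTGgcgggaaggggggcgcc
Pdk2: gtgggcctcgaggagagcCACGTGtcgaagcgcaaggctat

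Genes with the largest SVZ ratios are shown next, over the part of the 250 bases before a start that touches no exon in GENCODE M21. These are chr11:78322823-78322967 (plus strand) for *Aldoc*, chr3:98339991-98340219 (minus) for *Phgdh* and chr19:15925060-15925309 (minus) for *Psat1*. None of the 3 stretches holds ACGTG or TGATGNAA, so no letter is in capitals. *Aldoc* and *Psat1* are nevertheless among the 17 genes with ACGTG, since a window of each holds it in the 50 bases after the start, which are not printed. The stretches of *Aldoa* (which also lies in an intron of *Fam57b*), *Ldha* and *Psat1* lie before an internal start, in an intron of a longer transcript of the same gene in GENCODE M21, and the other stretches lie in no transcript.
Aldoc: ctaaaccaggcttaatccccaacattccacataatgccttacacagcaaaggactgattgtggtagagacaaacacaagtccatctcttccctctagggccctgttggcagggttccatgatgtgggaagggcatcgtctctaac
Phgdh: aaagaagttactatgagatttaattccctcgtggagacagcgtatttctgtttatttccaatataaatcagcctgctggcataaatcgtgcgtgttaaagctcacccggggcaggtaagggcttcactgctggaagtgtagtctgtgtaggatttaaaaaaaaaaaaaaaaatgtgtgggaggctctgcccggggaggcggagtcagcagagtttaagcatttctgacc
Psat1: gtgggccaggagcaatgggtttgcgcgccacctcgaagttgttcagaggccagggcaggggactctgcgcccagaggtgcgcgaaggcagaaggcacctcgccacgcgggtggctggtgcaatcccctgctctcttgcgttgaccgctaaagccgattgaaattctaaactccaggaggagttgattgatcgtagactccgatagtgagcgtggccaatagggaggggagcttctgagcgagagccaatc

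Hexokinase traps glucose in the cell as glucose 6-phosphate. *Hk1*, the form most used by mature brain, had 729 reads (14.2 CPM) in the SVZ and 1095 reads (49.7 CPM) in the cortex, a log2 ratio of -1.81 (95% interval -1.95 to -1.67), or 3.50-fold more in the cortex. *Hk2*, known from growing and tumour cells, had 1400 reads (27.2 CPM) in the SVZ and 192 reads (8.71 CPM) in the cortex, a log2 ratio of 1.64 (95% interval 1.43 to 1.87) and 3.13-fold more in the SVZ. The isozymes thus went opposite ways. Their log2 ratios differed by -3.45 (95% interval -3.72 to -3.19), a difference that does not depend on how the libraries are scaled. Per kilobase of transcript, *Hk1* made up 40.2% of the pair in the SVZ and 88.02% in the cortex. *Gpi1*, which turns glucose 6-phosphate into fructose 6-phosphate, stood at 99.4 CPM in the SVZ and 72.5 CPM in the cortex, a log2 ratio of 0.45.

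Phosphofructokinase, the main control point of glycolysis, has liver, muscle and platelet forms. *Pfkl* was nearly level at 100.3 CPM in the SVZ and 109.8 CPM in the cortex, with a log2 ratio of -0.13 (95% interval -0.20 to -0.06) that turned to 0.26 when ratios were centred on transcript length and GC content. The other forms were lower in the SVZ. *Pfkm* was at 41.96 CPM in the SVZ and 74.2 CPM in the cortex, with a log2 ratio of -0.82 (95% interval -0.92 to -0.73). *Pfkp* (chr13:6579768-6648777, minus strand) had 240 reads (4.67 CPM) in the SVZ and 1108 reads (50.2 CPM) in the cortex, a log2 ratio of -3.43 (95% interval -3.64 to -3.23) and 10.8-fold more in the cortex, the lowest log2 ratio of the 42 genes in the unstranded counts. Per kilobase it was 4.02% of *Pfkp* and *Pfkl* together in the SVZ and 29.2% in the cortex. Its transcript shares 16.6% of its 75-base windows with *Pitrm1*, which overlaps it, and reads over both genes are left out of the unstranded count. When both stranded columns were added, the sum for *Pfkp* was 746 reads in the SVZ and 1242 in the cortex, and its log2 ratio was -1.96. That sum can also hold reads from *Pitrm1*, which was not tested, so the size of the *Pfkp* ratio is not settled. The direction was the same, but *Pfkp* was then no longer past 4-fold, and *Eno2*, at -2.12, had the lowest log2 ratio.

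Aldolase splits fructose 1,6-bisphosphate. *Aldoc* (chr11:78322968-78327781, plus strand), the brain form known as an astrocyte marker, had 52105 reads (1013 CPM) in the SVZ and 41 reads (1.86 CPM) in the cortex. That was 545-fold more in the SVZ (95% interval 401 to 759), a log2 ratio of 9.09 (95% interval 8.65 to 9.57), and rank 10 from the SVZ side among 9027 genes. *Aldoa*, the general form, stood at 260.3 CPM in the SVZ and 132 CPM in the cortex with a log2 ratio of 0.98 (95% interval 0.92 to 1.04), just inside 2-fold. Per kilobase *Aldoc* exceeded *Aldoa* in the SVZ, at 68.4% of the pair, and was 0.776% of it in the cortex. The ratios of the pair differed by 8.11 (95% interval 7.67 to 8.59), the widest gap of the 12 isozyme pairs compared. No 75-base window of *Aldoc* is shared with another gene.

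Outside enolase, the 5 enzymes of the lower part of glycolysis were moderately higher in the SVZ. *Tpi1*, which interconverts the triose phosphates, was at 200.2 CPM in the SVZ and 126 CPM in the cortex, a log2 ratio of 0.67 (95% interval 0.61 to 0.73). *Gapdh*, which oxidises glyceraldehyde 3-phosphate, was at 237 CPM in the SVZ and 152 CPM in the cortex, with a log2 ratio of 0.64 (95% interval 0.59 to 0.70). *Pgk1*, which makes the first ATP of the pathway, was at 182 CPM in the SVZ and 122 CPM in the cortex, with a log2 ratio of 0.58 (95% interval 0.52 to 0.64). *Gapdh* and *Pgk1*, often used as reference genes, thus differed between the libraries beyond counting error. Phosphoglycerate mutase *Pgam1* was at 81.5 CPM in the SVZ and 59.6 CPM in the cortex, with a log2 ratio of 0.45 (95% interval 0.36 to 0.54). *Pkm*, pyruvate kinase, was at 931 CPM in the SVZ and 595 CPM in the cortex, with a log2 ratio of 0.65 (95% interval 0.62 to 0.67), and had the highest level per kilobase of the 15 glycolytic genes in both libraries (383 and 245 CPM per kilobase). These 5 log2 ratios spanned 0.45 to 0.67, and none reached 2-fold. When ratios were centred on transcript length and GC content, *Pkm* passed 2-fold with a log2 ratio of 1.16, and *Pgk1* and *Pgam1* came to 0.17 and 0.18. Gene counts do not separate the M1 and M2 splice forms of *Pkm*. *Gapdh*, *Pgk1* and *Pgam1* share 80.3%, 67.5% and 40.6% of their 75-base windows with processed pseudogenes, and multimapping reads were not counted, so their levels are low estimates. The share for *Pkm* was 19.6%, so its rank per kilobase holds for counted reads only.

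Enolase differed between its genes. *Eno2*, the neuron-specific form, had 125 reads (2.43 CPM) in the SVZ and 233 reads (10.6 CPM) in the cortex, a log2 ratio of -2.12 (95% interval -2.45 to -1.80) and 4.35-fold more in the cortex. *Eno1*, the general form, had 246 reads in the SVZ and 95 in the cortex, and its log2 ratio of 0.15 (95% interval -0.20 to 0.51) had an interval that held 0. *Eno1* shares 65.4% of its windows with other genes, first among them *Eno1b*, a near-identical copy that had 2268 reads (44.1 CPM) in the SVZ and 400 reads (18.1 CPM) in the cortex. The sum of *Eno1* and *Eno1b*, made after their values were seen, was 48.9 CPM in the SVZ and 22.4 CPM in the cortex, a log2 ratio of 1.12 (95% interval 0.98 to 1.26). On *Eno1* alone, *Eno2* was 26.9% of the pair per kilobase in the SVZ and 64.01% in the cortex. These shares leave out *Eno1b*, which had more reads than *Eno1* in both libraries, so they overstate the part of *Eno2*.

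**Figure D2:**
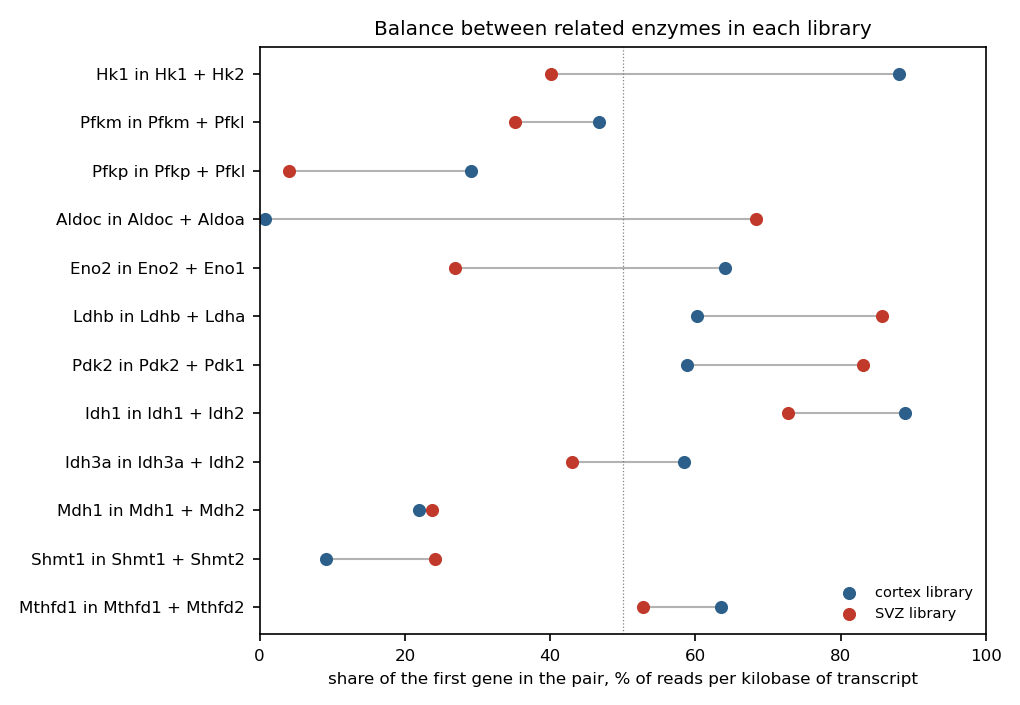
Share of the first gene in each of 12 pairs of related enzymes, as a percentage of reads per kilobase of transcript, in the SVZ (red) and cortex (blue) libraries. The longest line belongs to *Aldoc*, from 0.776% in the cortex to 68.4% in the SVZ, followed by *Hk1*, from 88.02% to 40.2%, while *Mdh1* hardly differs at 21.96% and 23.8%.

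Lactate dehydrogenase interconverts pyruvate and lactate. *Ldhb*, the heart form, had 53711 reads (1044 CPM) in the SVZ and 7126 reads (323 CPM) in the cortex, a log2 ratio of 1.69 (95% interval 1.66 to 1.73) and 3.23-fold more in the SVZ. *Ldha*, the muscle form, was at 243 CPM in the SVZ and 297 CPM in the cortex, a log2 ratio of -0.29 (95% interval -0.33 to -0.25). *Ldhb* led the pair per kilobase in both areas, with 85.7% in the SVZ and 60.2% in the cortex. Among carriers, the neuronal glucose transporter *Slc2a3* (GLUT3) had 557 reads (10.8 CPM) in the SVZ and 839 reads (38.05 CPM) in the cortex, 3.51-fold more in the cortex with a log2 ratio of -1.81 (95% interval -1.97 to -1.66). The lactate carrier *Slc16a1* (MCT1) was close to level at 35.6 CPM in the SVZ and 40.1 CPM in the cortex, a log2 ratio of -0.17 (95% interval -0.29 to -0.06). *Slc2a1*, the glucose transporter of vessels and glia, was not among the 42 genes and had a log2 ratio of 0.40.

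The pentose phosphate genes kept within 2-fold. *G6pdx*, which commits glucose 6-phosphate to the pathway, was at 59.6 CPM in the SVZ and 80.2 CPM in the cortex, a log2 ratio of -0.43 (95% interval -0.51 to -0.34). *Pgd*, the next dehydrogenase, went the other way at 49.01 CPM in the SVZ and 35.4 CPM in the cortex, with a log2 ratio of 0.47 (95% interval 0.35 to 0.59). In the part that rearranges sugars, *Taldo1*, transaldolase, was at 262 CPM in the SVZ and 197 CPM in the cortex, with a log2 ratio of 0.41 (95% interval 0.36 to 0.46). *Tkt*, transketolase, was at 187 CPM in the SVZ and 181 CPM in the cortex, and its log2 ratio of 0.05 (95% interval -0.0037 to 0.10) had an interval that held 0.

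Pyruvate dehydrogenase joins glycolysis to the TCA cycle and is switched off by its kinases. *Pdha1*, its catalytic subunit, was at 79.6 CPM in the SVZ and 74.01 CPM in the cortex, a log2 ratio of 0.10 (95% interval 0.02 to 0.19). *Pdk2* had 2089 reads (40.6 CPM) in the SVZ and 346 reads (15.7 CPM) in the cortex, a log2 ratio of 1.37 (95% interval 1.21 to 1.54) and 2.59-fold more in the SVZ, whereas *Pdk1*, the kinase known as a HIF target, was at 19.03 CPM in the SVZ and 25.3 CPM in the cortex, with a log2 ratio of -0.41 (95% interval -0.56 to -0.26). The kinases' log2 ratios differed by 1.78 (95% interval 1.56 to 2.01), and *Pdk2* was 83.1% of the pair per kilobase in the SVZ and 58.9% in the cortex. *Pdha1* overlaps *Map3k15*. Its summed stranded counts, which can also hold reads from *Map3k15*, were 7051 and 2899 reads, with a log2 ratio of 0.06.

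Within the cycle most genes were close to level. *Cs*, citrate synthase, which opens the cycle, was at 168 CPM in the SVZ and 210.1 CPM in the cortex, a log2 ratio of -0.32 (95% interval -0.37 to -0.27). *Idh3a*, a subunit of the NAD-dependent isocitrate dehydrogenase, was at 217 CPM in the SVZ and 207 CPM in the cortex, with a log2 ratio of 0.07. *Ogdh*, 2-oxoglutarate dehydrogenase, was at 97.6 CPM in the SVZ and 84.6 CPM in the cortex, with a log2 ratio of 0.21. Both dehydrogenases thus lay near equal levels. *Sucla2*, of the ATP-forming succinyl-CoA ligase, had a log2 ratio of 0.21. *Fh1*, fumarase, was at 48.5 CPM in the SVZ and 48.2 CPM in the cortex, and its log2 ratio of 0.01 (95% interval -0.09 to 0.11) had an interval that held 0. The cytosolic malate dehydrogenase *Mdh1* was at 485 CPM in the SVZ and 406 CPM in the cortex, with a log2 ratio of 0.26, and the mitochondrial *Mdh2* at 1066 CPM in the SVZ and 989 CPM in the cortex, with a log2 ratio of 0.11. *Mdh2* had 732 CPM per kilobase in the SVZ and 679 in the cortex, the highest level of the 42 genes in the cortex and the next after *Ldhb* (801) in the SVZ. These ranks hold for counted reads only, since genes with many shared windows, such as *Gapdh*, are low estimates. The directions of *Idh3a*, *Pdha1*, *Mdh1*, *Mdh2* and *Pfkl* were not kept under every scaling or length and GC correction, so no side is given for them.

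The NADP-dependent isocitrate dehydrogenases did part. *Idh2*, in the mitochondria, had 10023 reads (195 CPM) in the SVZ and 2206 reads (100.04 CPM) in the cortex, a log2 ratio of 0.96 (95% interval 0.90 to 1.03), just inside 2-fold. *Idh1*, in the cytosol, had 35167 reads (684 CPM) in the SVZ and 23124 reads (1049 CPM) in the cortex, a log2 ratio of -0.62 (95% interval -0.64 to -0.59) and 1.53-fold more in the cortex. The difference between them was -1.58 (95% interval -1.65 to -1.51), and *Idh1* led the pair per kilobase in both areas, with 72.7% in the SVZ and 88.8% in the cortex.

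**Figure D3:**
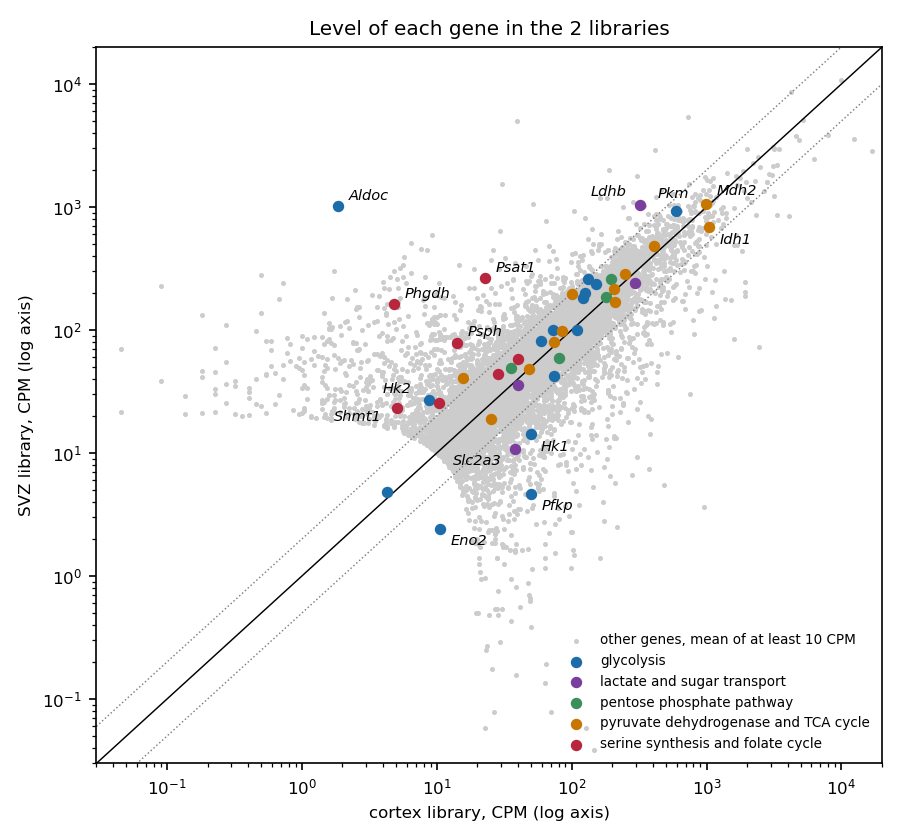
CPM of each gene in the cortex (x) and SVZ (y) libraries on log axes, with the 42 genes coloured by group over the other genes averaging 10 CPM or more and reads in both libraries. The solid line marks equal levels and the dotted lines 2-fold; TCA genes such as *Mdh2* (1066 against 989 CPM) lie near the solid line, and *Aldoc*, *Phgdh* and *Psat1* lie far above it.

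The serine and folate genes were higher in the SVZ without exception: 7 of 7 had intervals above 0, 5 were past 2-fold (14.9% of all genes were) and 4 were past 4-fold (6.75% of all genes). Of all genes averaging 10 CPM or more, 55.2% were higher in the SVZ and 89.3% had an interval that left out 0. *Phgdh* (chr3:98313170-98339990, minus strand) catalyses the first, committing step from 3-phosphoglycerate. It had 8376 reads (163 CPM) in the SVZ and 106 reads (4.81 CPM) in the cortex, a log2 ratio of 5.08 (95% interval 4.81 to 5.37), 33.9-fold more in the SVZ and rank 153 of 9027. *Psat1* (chr19:15904678-15947337, minus strand), the transaminase of the middle step, had 13611 reads (265 CPM) in the SVZ and 502 reads (22.8 CPM) in the cortex, a log2 ratio of 3.54 (95% interval 3.41 to 3.67) and 11.6-fold more. *Psph* (chr5:129765558-129787449, minus strand), the phosphatase that releases serine, had 4063 reads (78.99 CPM) in the SVZ and 314 reads (14.2 CPM) in the cortex, a log2 ratio of 2.47 (95% interval 2.31 to 2.64) and 5.55-fold more. The ratio thus declined in the order of the steps. The 3 genes together took 506 CPM in the SVZ and 41.8 CPM in the cortex. *Phgdh* shares 47.4% of its windows with 13 other genes, the leading ones pseudogenes, and *Psph* 22.8% with *Cct6a*, while *Psat1* shares none.

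Serine hydroxymethyltransferase moves carbon from serine to folate, in the cytosol (*Shmt1*) and in the mitochondria (*Shmt2*). *Shmt1* (chr11:60788104-60811718, minus strand) had 1192 reads (23.2 CPM) in the SVZ and 111 reads (5.03 CPM) in the cortex, a log2 ratio of 2.20 (95% interval 1.92 to 2.50) and 4.60-fold more in the SVZ. *Shmt2* was higher by less, at 58.3 CPM in the SVZ and 39.95 CPM in the cortex, with a log2 ratio of 0.55 (95% interval 0.44 to 0.66). Centring on length and GC content took *Shmt2* past 2-fold, to a log2 ratio of 1.08. Per kilobase *Shmt2* led in both areas, since *Shmt1* was 24.1% of the pair in the SVZ and 9.17% in the cortex. The folate enzymes showed the reverse arrangement between compartments. Mitochondrial *Mthfd2*, known from embryonic and tumour cells, had 1306 reads (25.4 CPM) in the SVZ and 231 reads (10.5 CPM) in the cortex, a log2 ratio of 1.28 (95% interval 1.07 to 1.49), and cytosolic *Mthfd1* was at 44.2 CPM in the SVZ and 28.3 CPM in the cortex, with a log2 ratio of 0.64 (95% interval 0.51 to 0.77). The difference of *Mthfd1* from *Mthfd2* was -0.64 (95% interval -0.88 to -0.39). The 4 folate genes together had summed levels of 151 and 83.8 CPM.

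Other genes of the same pathways were listed beside the 42. Of 108, 62 averaged 10 CPM or more, and of these 13 were at least 2-fold higher in the SVZ and 4 in the cortex, beside 14.9% and 12.3% of all genes. The median log2 ratio over the 87 averaging 1 CPM or more was 0.29. Serine and folate genes gave 5 of the 13 and 2 of the 4, out of 18. *Aldh1l1*, the cytosolic formyltetrahydrofolate dehydrogenase, also an astrocyte marker and so in the glial marker list, had 2718 reads in the SVZ and 0 in the cortex, at least 388-fold higher in the SVZ against a floor of 3 reads. Its mitochondrial relative *Aldh1l2* had 1019 reads (19.8 CPM) in the SVZ and 1143 reads (51.8 CPM) in the cortex, a log2 ratio of -1.39 (95% interval -1.51 to -1.26). The relatives thus went opposite ways. *Tyms*, thymidylate synthase, had 9851 reads (192 CPM) in the SVZ and 487 reads (22.1 CPM) in the cortex, a log2 ratio of 3.12 (95% interval 2.98 to 3.25). *Gldc*, of the glycine cleavage system, was at 19.2 CPM in the SVZ and 1.63 CPM in the cortex, with a log2 ratio of 3.56 (95% interval 3.08 to 4.08), and *Cbs*, which joins serine to homocysteine, at 23.99 CPM in the SVZ and 0.499 CPM in the cortex, with a log2 ratio of 5.59 (95% interval 4.74 to 6.59). Not all serine and folate genes of this list followed. Of 27 averaging 1 CPM or more, 17 were higher in the SVZ and 10 in the cortex. Of all genes averaging 10 CPM or more, 55.2% were higher in the SVZ. *Atic*, a purine synthesis enzyme, had 502 reads (9.76 CPM) in the SVZ and 462 reads (20.95 CPM) in the cortex, a log2 ratio of -1.10 (95% interval -1.29 to -0.92).

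**Figure D4:**
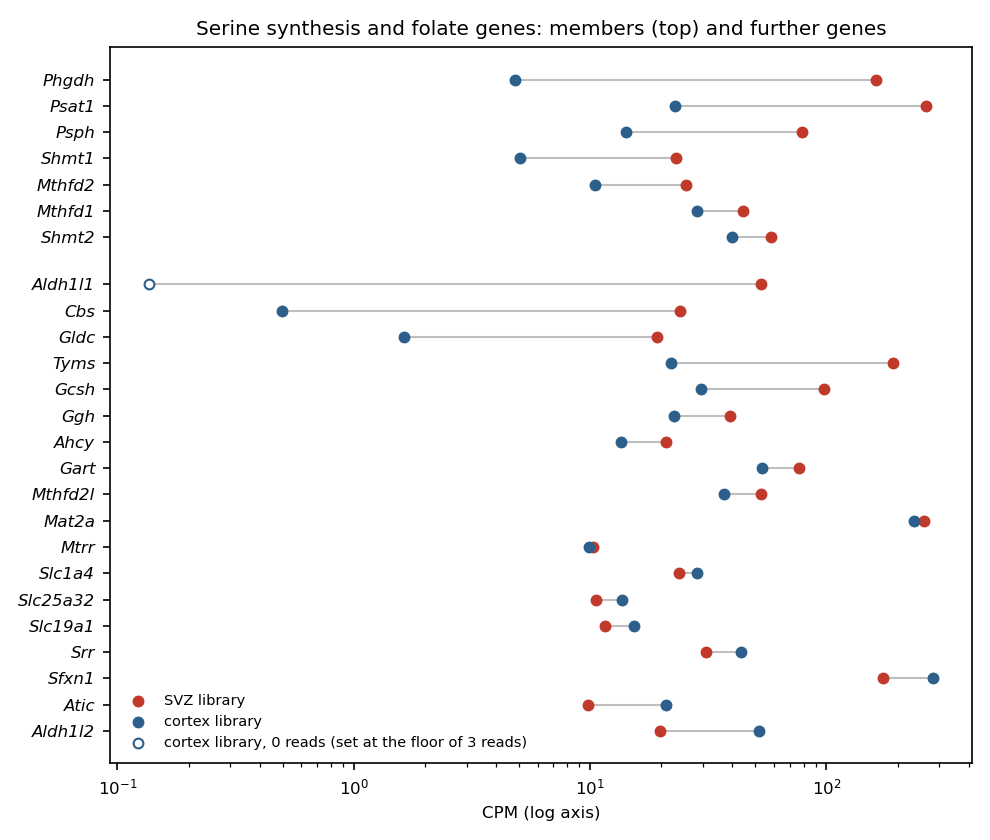
CPM on a log axis of serine and folate genes in the SVZ (red) and cortex (blue) libraries, the 7 genes of the set above and 18 further genes of the same pathways below. All 7 have the red point to the right, and *Aldh1l1*, with no cortex read, is drawn at the floor of 3 reads.

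Of 25 further pyruvate dehydrogenase and TCA genes averaging 10 CPM or more, 22 lay within 2-fold, as did 72.8% of all genes. *Suclg2*, of the GTP-forming succinyl-CoA ligase, takes the place that *Sucla2* has in the ATP-forming one. It had 1095 reads (21.3 CPM) in the SVZ and 22 reads (0.998 CPM) in the cortex, a log2 ratio of 4.42 (95% interval 3.81 to 5.10) and 21.3-fold more in the SVZ. *Sucla2* itself was at 288 CPM in the SVZ and 249 CPM in the cortex. *Me1*, the cytosolic malic enzyme, was at 6.30 CPM in the SVZ and 22.4 CPM in the cortex, a log2 ratio of -1.83 (95% interval -2.04 to -1.63). In glycolysis 4 of 11 further genes were past 2-fold in the SVZ and 1 in the cortex, beside 14.9% and 12.3% of all genes. The cortex gene was *Pfkfb3*, which makes the activator of phosphofructokinase, with 1144 reads (22.2 CPM) in the SVZ and 1591 reads (72.2 CPM) in the cortex and a log2 ratio of -1.70 (95% interval -1.81 to -1.59). *Pfkfb2*, its relative, was at 30.4 CPM in the SVZ and 56.7 CPM in the cortex, with a log2 ratio of -0.90 (95% interval -1.01 to -0.79). None of 4 further transport genes averaging 10 CPM or more was past 2-fold. Of the 13 listed, 10 averaged 1 CPM or more, and their log2 ratios ran from -3.75 to 3.20. Of 4 further pentose phosphate genes, 2 were past 2-fold in the SVZ and none in the cortex, beside 14.9% and 12.3% of all genes. The gluconeogenic genes *Fbp1*, *Fbp2*, *G6pc* and *Pck1* and the testis forms *Pgk2*, *Ldhc* and *Pdha2* had 0 reads in both libraries.

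Regulators of these pathways were counted the same way. Of 20, 14 averaged 10 CPM or more, with 3 past 2-fold in the SVZ and 2 in the cortex, near the 14.9% and 12.3% of all genes. *Nfe2l2*, the oxidative stress factor Nrf2, had 996 reads (19.4 CPM) in the SVZ and 34 reads (1.54 CPM) in the cortex, a log2 ratio of 3.65 (95% interval 3.16 to 4.19), *Srebf1*, of lipid synthesis, had a log2 ratio of 2.22, and *Ppargc1a*, a coactivator of mitochondrial genes, one of 1.57. *Nrf1* and the stress factor *Ddit3* followed, with log2 ratios of 0.97 and 0.79. *Myc* and *Mycn*, known to drive glycolytic genes, were higher in the cortex. *Myc* had 817 reads (15.9 CPM) in the SVZ and 1522 reads (69.02 CPM) in the cortex, a log2 ratio of -2.12 (95% interval -2.24 to -2.00), and *Mycn* was at 92.4 CPM in the SVZ and 305 CPM in the cortex, with a log2 ratio of -1.72 (95% interval -1.78 to -1.67). The log2 ratio of their partner *Max* was -0.87 and that of *Mtor* -0.30. *Hif1a* and *Atf4*, singled out for the promoter letters above, had log2 ratios of 0.18 and 0.52.

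Targets of HIF outside glycolysis were counted too. Of 16, 10 averaged 10 CPM or more, with 2 past 2-fold in the SVZ and 1 in the cortex, near the 14.9% and 12.3% of all genes. In the SVZ *Ddit4*, an inhibitor of mTOR signalling, had a log2 ratio of 1.19 and the mitochondrial gene *Higd1a* 1.03, followed by *Kdm3a* at 0.48, *Mxi1* at 0.45 and *Bnip3l* at 0.27. *Egln3*, below the 10 CPM minimum and so not counted, had 739 reads (14.4 CPM) in the SVZ and 0 in the cortex. Against a floor of 3 reads its log2 ratio was 6.72, with a lower 95% limit of 6.42. In the cortex *Ndrg1* had 291 reads (5.66 CPM) in the SVZ and 2253 reads (102 CPM) in the cortex, a log2 ratio of -4.17 (95% interval -4.36 to -4.00), followed by *Bnip3* at -0.83 and *Egln1* at -0.11. The median of the 14 averaging 1 CPM or more was 0.36. Over all genes averaging 10 CPM or more it was 0.10, but with the minimums unlike, these medians are not directly comparable.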

How the data were processed

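RNA-seq libraries from laser-captured SVZ and cortex of embryonic mouse brain were compared, 1 library for each area. The authors trimmed adapters, mapped read 1 to mm10 and counted reads per gene with STAR, and the submitters' processing notes list cutadapt 4.1 and STAR 2.7.9a. The deposited counts are raw whole reads per gene, in 3 columns for each library, and the column that ignores strand was used. Reads that map to several places (8.20% of SVZ reads and 6.89% of cortex reads) or overlap several genes are in no gene's count. The authors' table of fold changes was not used. The lines for unassigned reads were kept out of totals, and 59.0% and 59.1% of reads were assigned to genes.

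CPM was computed on gene-assigned reads. Log2 ratios had no pseudocount, and where a library had 0 reads a floor of 3 was used. Intervals are exact 95% Clopper-Pearson limits of the share of a gene's reads from the SVZ library, and for isozyme pairs exact conditional limits of the odds ratio. They cover counting error only, since PCR copies without molecular identifiers are not independent molecules. Genes were counted past 2-fold and 4-fold where they averaged 10 CPM or more, and group medians took genes averaging 1 CPM or more. Lengths are of the longest coding transcript in GENCODE M21 on GRCm38, and 75-base windows shared with other genes' transcripts were counted on it. Sequences came from RefSeq.

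The text names all 42 genes and, of the further pathway genes, regulators and HIF targets, up to 5 in each direction with the largest ratio by the end of the interval nearer to 0. *Slc2a1*, *Eno1b*, *Hif1a* and *Atf4* were named after their values were seen, as were genes at 0. One further pathway gene is not reported here and was left out of its list and counts. The 42 genes and all lists were chosen with earlier results of these data known. Alternatives were size factors from DESeq2 1.42.0, upper-quartile and TMM scaling by edgeR 4.0.16, removal of the 10 most counted genes from the totals, summed stranded counts, an SVZ library thinned to the cortex depth, a pseudocount of 1 CPM, length and GC centring, other minimums and thresholds, and merged exon length. The sum of *Eno1* and *Eno1b* was added after seeing the data. The code was tested on simulated data. Software was Python 3.11.15 with scipy 1.17.1, matplotlib 3.10.9, numpy 2.4.6 and pandas 2.3.3, and R 4.3.3.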

Additional observations from a re-analysis of the deposited data

How the results depend on the processing

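No paired analysis was possible because there was a single library of each area, which also left no replicate to leave out. The count of 9 genes past 2-fold in the SVZ became 3 at a minimum mean of 100 CPM, 15 at 1.5-fold and 5 at 4-fold, and the count of 3 in the cortex became 0, 5 and 1. Under the 11 other alternatives both counts were within 1.5 times of these values. For the further pathway genes, 13 in the SVZ became 28 with no minimum, 22 at 1 CPM, 1 at 100 CPM, 5 at 4-fold and 20 at 1.5-fold, and 4 in the cortex became 10, 8, 0, 0 and 7. TMM, upper-quartile and DESeq2 scaling moved the median of all genes by -0.10. In that order they gave median log2 ratios of 0.24, 0.24 and 0.24 for all 42 genes, 0.36, 0.36 and 0.36 for glycolysis, -0.32, -0.33 and -0.32 for lactate and sugar transport, 0.14, 0.13 and 0.14 for the pentose phosphate pathway, and 0.013, 0.0075 and 0.013 for the TCA group. Length and GC centring gave 0.26 for all 42 genes, -0.32 for transport and -0.018 for the TCA group. Means in place of medians were 0.59, -0.15, 0.13 and 0.16 for all 42 genes, transport, the pentose phosphate pathway and the TCA group, and ratios of summed CPM were 0.53 for all 42 genes, 1.03 for glycolysis, 0.93 for transport and -0.029 for the TCA group. The glycolysis median was 0.58 over genes averaging 10 CPM or more. The serine and folate median stayed within its counting interval throughout. Single genes reversed under length and GC centring (*Pfkl* to 0.26, *Pdha1* to -0.019, *Mdh1* to -0.016, *Mdh2* to -0.018, *Idh3a* to -0.054), and *Idh3a* also under TMM (-0.028), upper-quartile (-0.033) and DESeq2 scaling (-0.028). The cause was not tested. With merged exon length the per-kilobase order of *Pfkm* and *Pfkl* in the cortex reversed, to a log2 ratio of 0.43. *Pfkp* moved by 1.47 with summed stranded counts, *Aldoc* by -0.62 with the pseudocount and *Hk1* by 0.56 with length and GC centring. Depth allowed a level of 0.0583 CPM in the SVZ and 0.136 CPM in the cortex to go without a read.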
